A study of Mus musculus with 6 samples.

Results

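The genes described here are 42 autophagy and lysosome genes, chosen by gene symbol from the 27198 genes of the deposited expression table, and all 42 were found there. They cover the autophagy pathway in the order in which it acts, from the ULK initiation complex to the hydrolases of the lysosome. Bone marrow hematopoietic stem cells (HSCs), which sustain all blood lineages, were sorted from wild-type male C57BL/6 mice 8 to 10 weeks old. Control (Ctrl) mice received the solvent, and long-term ferulic acid (l-FA) mice received daily intraperitoneal injections of ferulic acid, a plant phenolic acid with antioxidant activity, at 50 mg/kg over 30 days. No mouse of either group was irradiated. The sort took cells negative for lineage markers, CD34 and Flk2 and positive for Sca-1 and c-Kit, and the RNA was amplified as cDNA and sequenced in 3 Ctrl and 3 l-FA libraries. The sources do not state how many mice were pooled for a library, so the p-values below measure the spread between these libraries, which may be technical, and a difference between pools cannot be told apart from a difference between treatments.

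Autophagy encloses cytoplasm in a double membrane, the autophagosome, and delivers it to the lysosome for breakdown. The ULK kinase complex starts the process, a class III PI3-kinase complex marks the growing membrane with the lipid PI3P, and a conjugation system joins small ubiquitin-like proteins of the ATG8 family to that membrane, where they bind cargo receptors. The transcription factors TFEB and TFE3 bind E-box sites in the promoters of many lysosomal and autophagy genes, and in HSCs autophagy is known to remove active mitochondria and to help keep the cells quiescent.

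Total counts per library lay between 19287735 and 20380610, so depth was close to even. The factors of the TMM normalization, which rescales library totals, were 0.968 to 0.979 in Ctrl and 1.025 to 1.032 in l-FA. Raw counts printed below are therefore not directly comparable between groups where differences are small. Markers of other cells moved with the treatment. Of 12 granulocyte and monocyte markers, 10 were lower in l-FA and 2, Lyz2 and Csf1r, were higher, and their summed level fell from 23540 to 24460 CPM (a library's counts scaled to a common total, after TMM normalization) in Ctrl to 6194 to 6495 in l-FA. None of those defining markers was at 0, and Mpo and Elane, which encode a peroxidase and an elastase of granulocyte precursors, made up most of the sum. Of 8 HSC markers, 7 were higher and Hlf was lower, with a summed CPM of 1552 to 1590 in Ctrl and 1778 to 1796 in l-FA. Cd34 and Flt3, the genes of the surface proteins that the sort was to exclude, were abundant in every library, at a mean deposited FPKM of 149 for Cd34 and 158 for Flt3 and a summed CPM of 2081 to 2124 in Ctrl and 2701 to 2813 in l-FA. Of 5 erythroid markers, 2 were higher, with a summed CPM of 43.1 to 56.3 over all libraries. The 4 measured B and T cell markers summed to 1.72 to 3.52 CPM, and Cd3e was at 0 in 2 Ctrl libraries. The part of these shifts in the differences below was not tested, and in bulk RNA fewer cells of a type and less RNA per cell cannot be told apart.

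All 42 genes had counts in every library. The lowest count of a member in any library was 130, mean counts ran from 165.8 to 9272, and 38 members lay above the median tested gene in mean CPM. With edgeR's quasi-likelihood test, adjusted over the 16520 genes tested, 17 members (40.5%) were higher in l-FA at an adjusted p under 0.05, where 25.5% of all genes tested were. Another 8 members (19.0%) were lower, where 25.0% of all genes tested were, and 17 did not pass. The counts by role given below are to be read beside these shares of all genes tested. The log2 fold changes of the members had a median standard error of 0.05, beside 0.099 over all genes tested, so smaller differences could pass. The differences were small. At 1.5-fold or more, 5 members passed (11.9%, against 20.6% of all genes tested), namely Ctss and Atg10 upward and Lamp1, Ulk2 and Hexa downward. Above 2-fold only Lamp1 passed (2.38%, against 11.8%). The l-FA libraries did not overlap the Ctrl libraries in CPM for 28 members (66.7%), where 60.3% of all genes tested did not. The median log2 fold change of the members, l-FA over Ctrl, was 0.09, beside 0.00 over all genes tested, and their median absolute log2 fold change was 0.23, beside 0.29. The libraries of a group lay close together for most members, with a median coefficient of variation of 2.96% in Ctrl and 3.61% in l-FA, where counting error alone gives 2.43% and 2.46%.

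**Figure D1:**
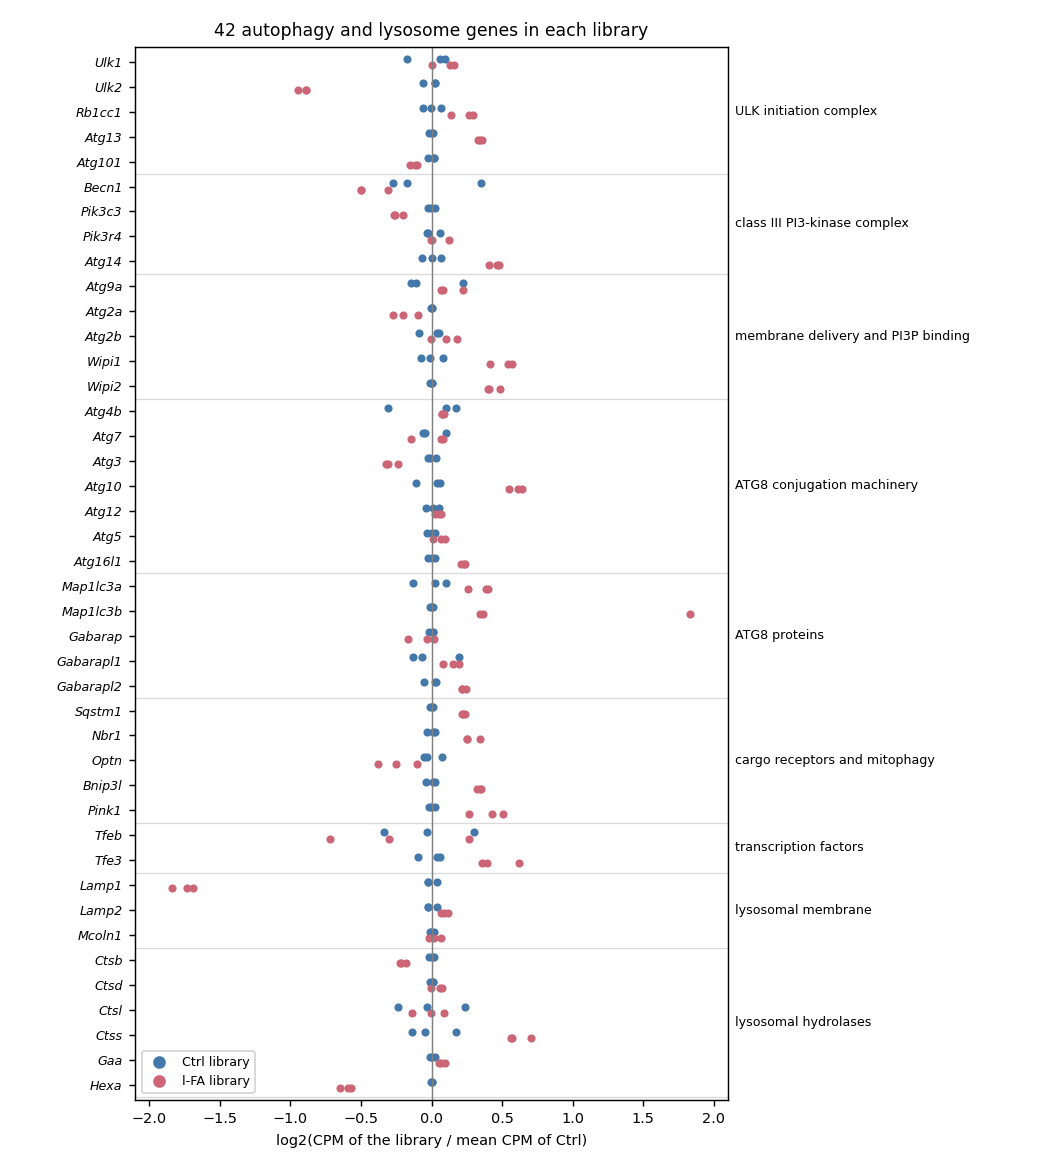
Level of each of the 42 genes in each library, as log2 of the library's CPM over the mean CPM of Ctrl, with blue points for the 3 Ctrl and red points for the 3 l-FA libraries and genes grouped by role. The 3 red points of Lamp1 lie far to the left, and a single red point of Map1lc3b lies far to the right of its neighbors.

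Per unit of transcript length, the lysosomal hydrolases Hexa and Ctsd were the most abundant members, with a mean deposited FPKM of 129 and 126 over the 6 libraries, followed by the protease Ctsb at 73.7 and the mitophagy kinase Pink1 at 51.6. Hexa led in Ctrl, at a mean of 153 beside 121 for Ctsd, and Ctsd led in l-FA, at 131 beside 106. Atg101 at 42.3, Gabarapl1 at 40.9 and Bnip3l at 38.7 followed. The neighbors Atg101 and Gabarapl1 overlapped, since single libraries of the latter ran across the level of the former. The factor genes stood near the bottom of the order, with 2.08 for Tfeb and 1.98 for Tfe3, and Wipi1 at 1.77 and Rb1cc1 at 1.65 were the lowest. FPKM levels rest on the gene lengths used by the authors.

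Lamp1, which encodes a heavily glycosylated protein of the lysosomal membrane and is a standard lysosome marker, showed the largest difference of all members. It lies at chr8:13209161-13225338 as listed in the deposited table. Its counts were 2315, 2159 and 2321 in Ctrl and 694, 711 and 729 in l-FA. Every l-FA library lay far below every Ctrl library. The mean CPM was 118 ± 2.65 (SD, n = 3 libraries) in Ctrl and 35.0 ± 1.77 in l-FA, 3.36-fold lower, with a log2 fold change of -1.75 (SE 0.048, edgeR adjusted p = 3.93e-06). Leaving out each library in turn gave -1.77 to -1.70. The gene overlaps Grtp1, which had between 18 and 51 counts in a library beside at least 694 for Lamp1.

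The partner protein LAMP2, which also takes part in fusion of autophagosomes with lysosomes, was encoded by a gene that did not follow Lamp1. Lamp2 had 6129, 5686 and 6077 counts in Ctrl and 6799, 6610 and 6714 in l-FA, and was the most abundant lysosomal membrane member in FPKM. Its l-FA libraries all lay above its Ctrl libraries in CPM, though by little, with a log2 fold change of 0.09 (SE 0.028, edgeR adjusted p = 0.035). That call was lost without Ctrl 2, Ctrl 3, l-FA 2 or l-FA 3, at an adjusted p of up to 0.108, with the replicate number as a block (0.0893) and with no low-count filter (0.0703). Within a library the FPKM ratio of Lamp1 to Lamp2 was 1.32, 1.33 and 1.34 in Ctrl and 0.357, 0.376 and 0.38 in l-FA, so that Lamp1 was the more abundant of the pair in every Ctrl library and the less abundant in every l-FA library. Mcoln1, the gene of a calcium channel of the lysosomal membrane, had a log2 fold change of 0.02 (adjusted p = 0.64) and overlapping groups.

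The members were searched for the E-box core that TFEB, TFE3 and other factors bind. By the rule of printing called members that hold TCACGTGA, only Atg3 would be shown. The promoters of Lamp1, which does not hold TCACGTGA, and of Ctsd and Mcoln1 were added after their values were seen. The sequences are from RefSeq on GRCm38.p6, each the 250 bases before the start site, read 5′ to 3′ on the strand of the gene. Lamp1 lies on the plus strand with this stretch at chr8:13158911-13159160, Atg3 on the plus strand at chr16:45158579-45158828, Ctsd on the minus strand at chr7:142387828-142388077 and Mcoln1 on the plus strand at chr8:3500269-3500518. Capitals mark CACGTG, or TCACGTGA where the full 8 letters are present.
Lamp1: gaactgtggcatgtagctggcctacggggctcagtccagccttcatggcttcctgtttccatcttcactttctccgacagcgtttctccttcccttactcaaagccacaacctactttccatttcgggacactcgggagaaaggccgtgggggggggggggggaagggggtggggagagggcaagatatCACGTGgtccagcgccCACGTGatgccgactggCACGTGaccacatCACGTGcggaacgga
Atg3: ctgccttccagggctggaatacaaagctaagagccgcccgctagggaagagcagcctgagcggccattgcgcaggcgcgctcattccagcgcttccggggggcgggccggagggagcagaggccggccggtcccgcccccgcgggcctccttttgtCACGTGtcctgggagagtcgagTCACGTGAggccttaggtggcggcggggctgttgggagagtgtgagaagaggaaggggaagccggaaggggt
Ctsd: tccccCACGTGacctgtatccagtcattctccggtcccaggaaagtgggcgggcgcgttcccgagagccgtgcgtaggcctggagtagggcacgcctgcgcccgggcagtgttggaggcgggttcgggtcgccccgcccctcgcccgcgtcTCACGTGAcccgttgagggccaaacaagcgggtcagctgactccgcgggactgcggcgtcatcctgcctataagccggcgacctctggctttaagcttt
Mcoln1: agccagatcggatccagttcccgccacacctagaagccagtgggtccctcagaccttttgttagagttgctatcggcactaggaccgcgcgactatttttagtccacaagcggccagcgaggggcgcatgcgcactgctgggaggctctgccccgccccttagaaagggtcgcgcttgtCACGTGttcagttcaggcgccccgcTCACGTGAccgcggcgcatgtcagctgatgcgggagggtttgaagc

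The search covered windows from 250 bases before to 50 bases after the start, and both words read the same on the opposite strand. Each TCACGTGA also holds a CACGTG. Of the 42 members, 34 were matched in the promoter table. TCACGTGA was present in 3 of them (8.82%), namely Atg3, Ctsd and Mcoln1, beside 1.12% of all 27025 genes in the table and 2.2% of the 10598 matched genes that were tested. CACGTG was present in 9 of the 34 (26.5%), beside 8.09% of all genes and 11.6% of those tested. The members that held CACGTG moved in different ways: Lamp1 and Atg3 were lower in l-FA, Atg14 and Gaa were higher, and Atg5, Atg7, Ctsd, Ctsl and Mcoln1 did not pass the test. The Lamp1 window held 4 copies of CACGTG, which begin at positions -61, -45, -28 and -15 counted from the start site, and 6 of 27025 genes (0.0222%) had a window with 4 or more. The limit of 4 is the count of Lamp1 itself, so this share is a description and not a test. Atg3 is the member that passed the test and holds TCACGTGA, and the other 3 promoters were chosen after their values were seen. A match describes these letters and does not show that a factor binds there.

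Of the factor genes, Tfe3 passed the test and Tfeb did not. The spread of Tfeb is too wide to say whether the pair moved together. Tfeb, a master regulator of lysosome genes, had 312, 473 and 400 counts in Ctrl and 351, 497 and 249 in l-FA. The libraries of each group were widely spread and the groups overlapped, with a log2 fold change of -0.19 (SE 0.27, adjusted p = 0.595) that turned to 0.03 without l-FA 3. Its relative Tfe3 had 685, 598 and 702 counts in Ctrl and 925, 1054 and 901 in l-FA, and was higher in every l-FA library, with a log2 fold change of 0.46 (SE 0.083, adjusted p = 0.00395). Among the other pathway genes described below, the relative Tfec was lower, at -0.42 (SE 0.069, edgeR adjusted p = 0.00262). Mitf, a further relative, had 0.41 and did not pass (adjusted p = 0.396). Both were named after their values were seen.

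Among the 6 hydrolases, 2 were higher, 2 lower and 2 did not pass. Hexa, which encodes the alpha subunit of beta-hexosaminidase, an enzyme of ganglioside breakdown, lies at chr9:59446823-59472392 and had 6029, 5850 and 6219 counts in Ctrl and 4370, 4233 and 4000 in l-FA. Every l-FA library was lower, and the groups were separated by far more than their spread. The mean CPM was 313 ± 1.04 (SD, n = 3) in Ctrl and 206 ± 5.57 in l-FA, 1.52-fold lower (log2 fold change -0.60, SE 0.027, adjusted p = 1.86e-05). Without l-FA 3 or l-FA 1 the log2 fold change was -0.57 or -0.59, and -0.57 lies under 1.5-fold.

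Ctss, which encodes cathepsin S, a cysteine protease abundant in antigen-presenting cells, lies at chr3:95434097-95463714. It had 543, 653 and 600 counts in Ctrl and 1064, 920 and 921 in l-FA. All l-FA libraries lay above all Ctrl libraries, with l-FA 1 the highest, and the Ctrl libraries were spread by 11.1% of their mean. The log2 fold change was 0.61 (SE 0.089, adjusted p = 0.00159), and it lay below 1.5-fold without Ctrl 1, at 0.54, or without Ctrl 3 or l-FA 1, at 0.58. The overlapping pseudogene Hmgb1-ps5 had 46 to 56 counts in a library. Ctsb, the gene of the most abundant cysteine protease of the set, was lower, with a log2 fold change of -0.21 (SE 0.021, adjusted p = 0.000364), while Ctsd, an aspartic protease, and Ctsl had 0.04 and -0.02 and did not pass. The FPKM ratio of Ctss to Ctsb was 0.219 ± 0.0224 (SD, n = 3) in Ctrl and 0.386 ± 0.0259 in l-FA. Gaa, the gene of the lysosomal glucosidase that degrades glycogen, was at the edge of the threshold, with a log2 fold change of 0.07 (adjusted p = 0.0495). Gaa lost its call without any of Ctrl 1, Ctrl 2, Ctrl 3, l-FA 2 and l-FA 3, at an adjusted p of up to 0.152, and also with DESeq2 (0.0614), RLE scaling (0.0575), no low-count filter (0.0936) and the replicate number as a block (0.112).

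**Figure D2:**
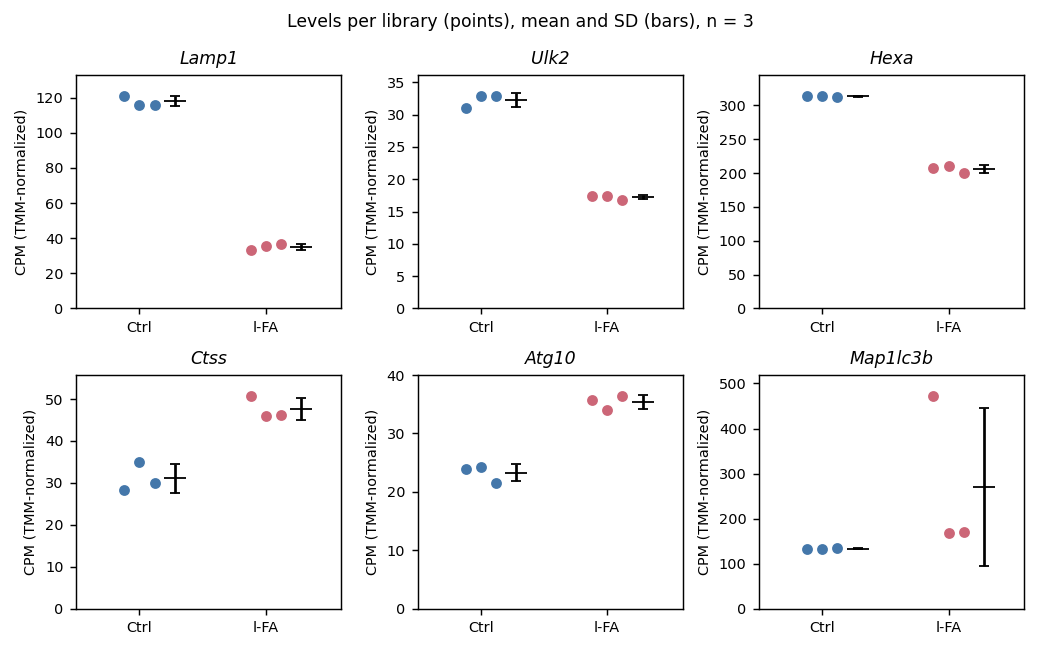
CPM of 6 genes in each library (points) with the mean and SD of each group (bars, n = 3 libraries), each axis starting at 0. Lamp1, Ulk2 and Hexa are lower and Ctss and Atg10 higher in all l-FA libraries, and the SD of Map1lc3b in l-FA is set by 1 library.

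At the head of the pathway, the ULK complex had 2 members higher, 2 lower and 1 that did not pass. Ulk2, a kinase that shares the initiating role with ULK1, lies at chr11:61666475-61745899 and had 595, 613 and 656 counts in Ctrl and 365, 348 and 336 in l-FA. All l-FA libraries were lower and lay close together. The mean CPM was 32.3 ± 1.09 (SD, n = 3) in Ctrl and 17.2 ± 0.314 in l-FA, 1.88-fold lower (log2 fold change -0.91, SE 0.055, adjusted p = 5.45e-05). Ulk1 had 485, 392 and 492 counts in Ctrl and 554, 478 and 517 in l-FA, with overlapping groups and a log2 fold change of 0.10 (adjusted p = 0.385). The FPKM ratio of Ulk2 to Ulk1 was accordingly 1.78, 2.27 and 1.93 in Ctrl and 0.955, 1.06 and 0.942 in l-FA, so that Ulk2 led in every Ctrl library and the pair was near even in l-FA.

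The scaffold and adaptor genes of the same complex moved less. Atg13, the adaptor that binds the kinase, was higher with a log2 fold change of 0.34 (adjusted p = 0.000169). Rb1cc1, which encodes the scaffold FIP200, had 0.23 (adjusted p = 0.0182), a call lost without Ctrl 1 or Ctrl 3 (0.055 and 0.0615) and with the replicate number as a block (0.0572). Atg101, the stabilizer of ATG13 and the most abundant ULK member in FPKM, had 2047, 1997 and 2080 counts in Ctrl and 2003, 1979 and 1947 in l-FA. The raw counts of the groups overlapped, but in CPM its l-FA libraries were all lower, with a log2 fold change of -0.13 (adjusted p = 0.0133) that lost its call without l-FA 1 or l-FA 3 (0.0587 and 0.0515). The summed CPM of the 5 genes was 283 to 284 in Ctrl and 288 to 293 in l-FA.

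Of the 4 genes of the class III PI3-kinase complex, 1 was higher, 1 lower and 2 did not pass. Pik3c3, the catalytic subunit VPS34 and the most abundant of the 4 in FPKM, had 1673, 1650 and 1794 counts in Ctrl and 1545, 1487 and 1535 in l-FA. It was lower in every l-FA library, with a log2 fold change of -0.24 (SE 0.034, adjusted p = 0.00141). Atg14, the subunit that directs the complex to autophagosome formation, was higher with 0.45 (adjusted p = 0.000397). Becn1, the gene of the scaffold Beclin 1, had 2408, 3586 and 2677 counts in Ctrl and 2253, 2144 and 2431 in l-FA. Ctrl 2 stood above the other Ctrl libraries, and although the groups did not overlap in CPM the log2 fold change of -0.43 (SE 0.16) did not pass (adjusted p = 0.0657). Without Ctrl 2 it was -0.22 with an adjusted p of 0.0509, and without Ctrl 1 it was -0.55 with 0.0359. Pik3r4, the regulatory kinase subunit, had 0.04 and did not pass.

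The genes of membrane delivery and PI3P binding gave 2 higher, 1 lower and 2 that did not pass. Wipi2, whose protein reads PI3P and recruits ATG16L1, was the most abundant of them and had 2964, 2874 and 3047 counts in Ctrl and 4279, 4075 and 4314 in l-FA. Its l-FA libraries all lay well above its Ctrl libraries, with a log2 fold change of 0.43 (SE 0.032, adjusted p = 0.000109). Its low-abundance relative Wipi1, with 130 to 136 counts in Ctrl and 184 to 211 in l-FA, had 0.51 (SE 0.089, adjusted p = 0.0034). The lipid transfer gene Atg2a was lower at -0.19 (adjusted p = 0.0189), a call lost without l-FA 1 or l-FA 2 (0.0573 and 0.0697). Its paralog Atg2b, at 0.09, and the scramblase gene Atg9a, at 0.13, did not pass, and Atg9a had a high Ctrl 1 library. Without Ctrl 1 it had 0.25 (adjusted p = 0.0263), and without Ctrl 2 or Ctrl 3 it had 0.06 or 0.07 (0.722 and 0.68).

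Among the 7 genes of the ATG8 conjugation machinery, 2 were higher, 1 was lower and 4 did not pass. Atg10, the E2-like enzyme that transfers ATG12 to ATG5, lies at chr13:91083475-91372087 and had 459, 453 and 431 counts in Ctrl and 749, 684 and 726 in l-FA. Every l-FA library was higher. The mean CPM was 23.3 ± 1.43 (SD, n = 3) in Ctrl and 35.4 ± 1.15 in l-FA, 1.52-fold higher (log2 fold change 0.60, SE 0.064, adjusted p = 0.000434), with 0.55 without Ctrl 3. Atg3, the E2-like enzyme that joins ATG8 proteins to lipid and whose promoter is printed above, had 1906, 1926 and 1992 counts in Ctrl and 1696, 1720 and 1625 in l-FA. Its l-FA libraries all lay lower, with a log2 fold change of -0.29 (SE 0.038, adjusted p = 0.00101). The 2 E2-like enzymes therefore went opposite ways.

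The remaining conjugation genes moved little. Atg5, the most abundant in FPKM, had 1287, 1282 and 1393 counts in Ctrl and 1451, 1443 and 1462 in l-FA. Its groups overlapped in CPM, and the log2 fold change of 0.06 (SE 0.039) did not pass (adjusted p = 0.251). Atg7, the shared E1-like enzyme, and Atg12 had 0.00 and 0.05 with overlapping groups. Atg16l1, which places the conjugate at the membrane, was higher at 0.23 (adjusted p = 0.00272). Atg4b, the protease that trims ATG8 proteins, had a low Ctrl 1 library (1482 counts, beside 1913 and 2142 in the other Ctrl libraries) and a log2 fold change of 0.08 that did not pass.

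Map1lc3b, which encodes LC3B, the ATG8 protein most used as an autophagosome marker, lies at chr8:122317100-122325499. It had 2553, 2454 and 2671 counts in Ctrl and 9921, 3393 and 3413 in l-FA. The l-FA 1 library stood far above the other l-FA libraries, which lay close together and above all Ctrl libraries. The mean CPM was 133 ± 1.28 (SD, n = 3) in Ctrl and 271 ± 175 in l-FA, and the log2 fold change of 1.03 (SE 0.40) did not pass (adjusted p = 0.075). Without l-FA 1 it was 0.37 with an adjusted p of 0.000629, and without l-FA 2 or l-FA 3 it was 1.29 or 1.28 with an adjusted p of 0.0416 or 0.0441. The size of the difference thus rested on 1 library, while its direction held in all l-FA libraries. Zcchc14, which it overlaps, did not exceed 4 counts in any library.

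The other ATG8 genes did not share that jump. Gabarapl1, the most abundant ATG8 gene in FPKM, had 2272, 2650 and 2247 counts in Ctrl and 2890, 2627 and 2845 in l-FA. Ctrl 2 was as high as the l-FA libraries, and the log2 fold change of 0.14 (SE 0.088) did not pass (adjusted p = 0.232). It was 0.24 with an adjusted p of 0.0114 without Ctrl 2 and 0.07 with 0.562 without Ctrl 3. Gabarapl2 was higher with 0.22 (SE 0.039, adjusted p = 0.00314). Map1lc3a was higher with 0.35 (SE 0.093, adjusted p = 0.0201), a call lost without Ctrl 2, l-FA 1 or l-FA 2 (0.0584, 0.056 and 0.0553). Gabarap had -0.06 and did not pass. As a share of the summed FPKM of the 5 ATG8 genes, Map1lc3b took 12.1%, 11.3% and 12.6% in Ctrl, 30.6% in l-FA 1 and 14.0% in both l-FA 2 and l-FA 3. Gabarapl1 held the largest share in every library except l-FA 1, where it had 29.6%.

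**Figure D3:**
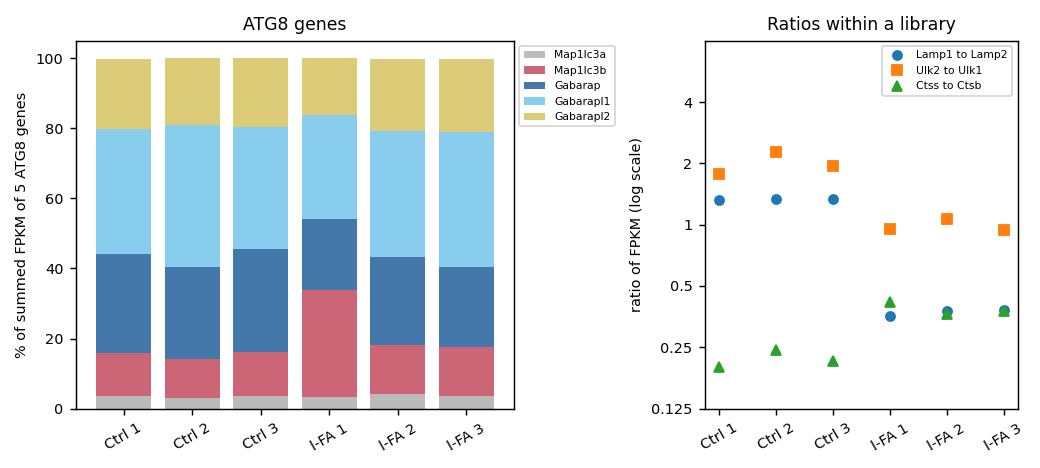
Left, share of each ATG8 gene in their summed deposited FPKM in each library, in percent. The share of Map1lc3b is 30.6% in l-FA 1 and 11.3% to 14.0% in the other libraries. Right, FPKM ratios of Lamp1 to Lamp2, Ulk2 to Ulk1 and Ctss to Ctsb in each library on a log scale. Lamp1 to Lamp2 drops from about 1.33 in Ctrl to 0.371 in l-FA.

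The cargo receptor and mitophagy genes were mostly higher, with 4 of 5 higher, where 25.5% of all genes tested were, and 1, Optn, that did not pass. Pink1, the kinase that labels damaged mitochondria and the most abundant of the 5 in FPKM, had 3643, 3449 and 3702 counts in Ctrl and 4729, 5029 and 5302 in l-FA. All l-FA libraries were higher, with a log2 fold change of 0.40 (SE 0.059, adjusted p = 0.00159). Bnip3l, the mitophagy receptor NIX, had 3167 to 3544 counts in Ctrl and 4394 to 4656 in l-FA and a log2 fold change of 0.34 (SE 0.027, adjusted p = 0.000149). The ubiquitin-binding receptors Sqstm1 (p62) and Nbr1 had 0.23 (SE 0.022, adjusted p = 0.000287) and 0.28 (SE 0.038, adjusted p = 0.0012). Optn, another receptor of ubiquitin-tagged mitochondria, lay the opposite way at -0.24 (SE 0.089) and did not pass (adjusted p = 0.0612). Without l-FA 2 it was -0.30 with an adjusted p of 0.0337, and without l-FA 1 it was -0.16 with 0.183. The groups did not overlap for any of the 5, as for 60.3% of all genes tested, and their summed CPM was 677 to 685 in Ctrl and 818 to 866 in l-FA. The annotated Bnip3l pseudogene had 350 counts in Ctrl 2 and 371 in l-FA 2 but 1 or 2 in every other library. Bnip3l itself was not high in these libraries but had its lowest CPM of each group there, by little. It had 170 CPM in Ctrl 2 beside 176 and 178, and 219 in l-FA 2 beside 222 and 223. Whether the genes shared reads was not tested.

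**Figure D4:**
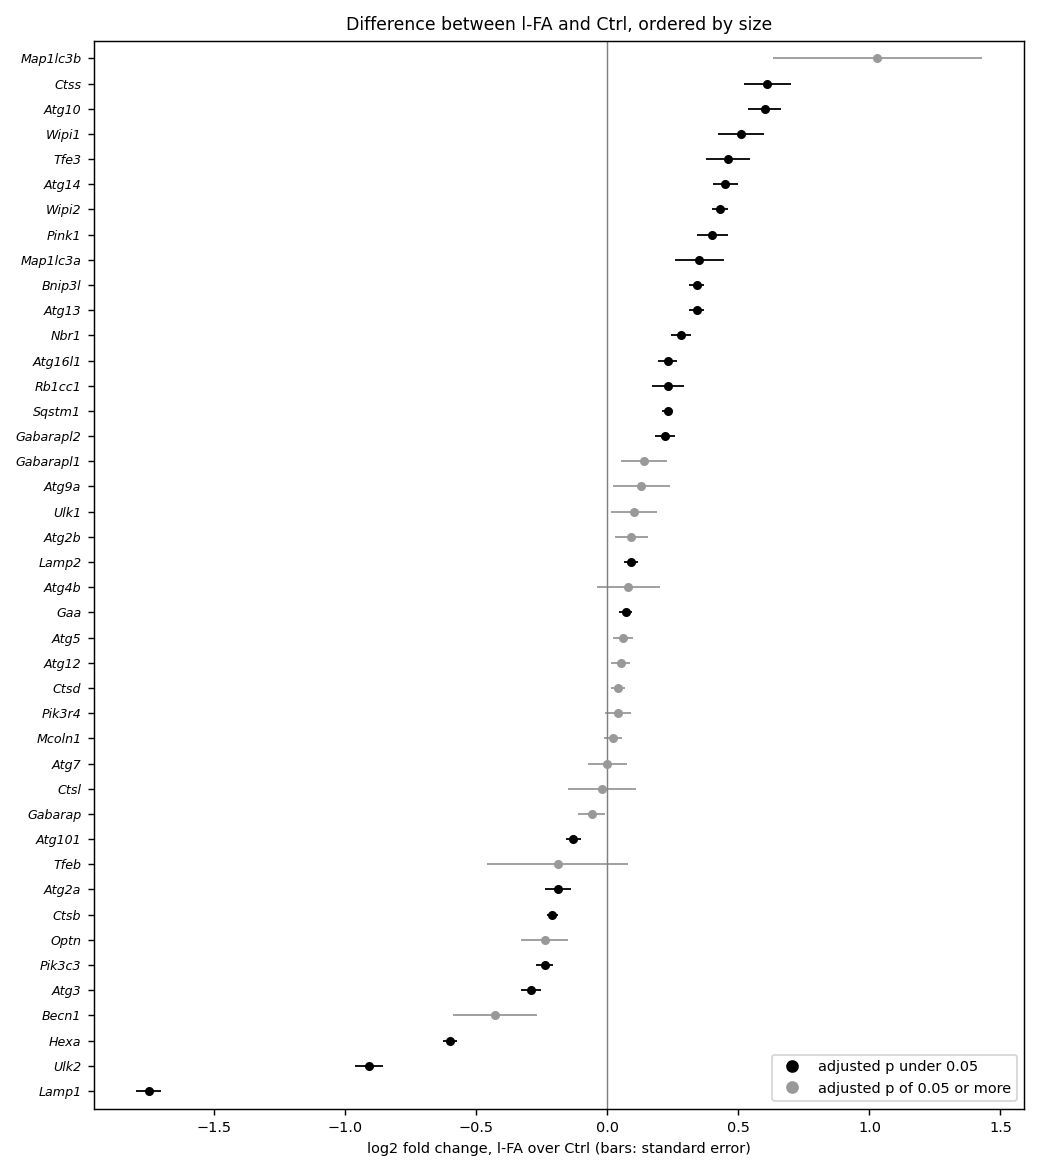
Log2 fold change of each of the 42 genes, l-FA over Ctrl, ordered by size, with bars for the standard error; black points have an adjusted p under 0.05 and gray points do not. Lamp1 at -1.75 and Ulk2 at -0.91 stand apart at the low end, and Map1lc3b at 1.03 carries the widest bar.

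A further 98 genes of the same pathway, listed by hand by role, were examined beside the members. All 98 were tested, and 35 (35.7%) were higher and 27 (27.6%) lower, beside 25.5% and 25.0% of all genes tested. Of these, 10 passed 1.5-fold (10.2%, against 20.6% of all genes tested), and the largest difference that passed the test, that of Ctsf, was under 2-fold. Their median log2 fold change was 0.08. The genes named next were chosen after their values were seen.

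The 16 genes of the vacuolar proton pump, which acidifies the lysosome, leaned downward. Of these, 7 (43.8%) were lower and 1 (6.25%) was higher, beside 25.0% and 25.5% of all genes tested. Their median log2 fold change was -0.15, and 5 of the lower calls held under 12 alternative analyses. Atp6v1c1 had -0.49 (SE 0.036, adjusted p = 0.00011) and the accessory subunit gene Atp6ap2 had -0.47 (SE 0.023, adjusted p = 2.82e-05). The 29 other autophagy factors leaned upward, with 12 (41.4%) higher, 4 (13.8%) lower and a median of 0.18, where 25.5% and 25.0% of all genes tested were higher and lower. Among them Tecpr1, which tethers autophagosomes to lysosomes, had 0.89 (SE 0.042, adjusted p = 2.34e-05) and Atg16l2, a paralog of Atg16l1, had 0.80. Atg9b, a paralog of Atg9a, had -0.78 (adjusted p = 0.00173).

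The other hydrolases and activators split, as the 6 member hydrolases did, with 13 (39.4%) higher, 11 (33.3%) lower and 9 of 33 that did not pass. Over all genes tested, 25.5% were higher and 25.0% lower. Ctsf, a cysteine protease, had the largest rise at 0.98 (SE 0.12, adjusted p = 0.000805), and Sgsh, an enzyme of heparan sulfate breakdown, had 0.85 (adjusted p = 9.98e-05). Gla, the alpha-galactosidase of glycolipid breakdown, had -0.87 (adjusted p = 0.000367) and Ctsz, a carboxypeptidase, had -0.55 (adjusted p = 4.34e-05). Of 20 other lysosomal membrane and sorting genes, 9 (45.0%) were higher and 5 (25.0%) lower. Like Lamp1, the late endosome and lysosome tetraspanin gene Cd63 was lower, at -0.67 (SE 0.047, adjusted p = 9.15e-05), the largest fall of these 20. The largest rise was that of Tpcn2, at 0.74 (SE 0.14, adjusted p = 0.0049). The abundant hematopoietic membrane gene Laptm5 was higher at 0.25 (adjusted p = 0.000147). In the promoter search, TCACGTGA was present in 10 of 78 matched genes of these lists (12.8%) and CACGTG in 20 (25.6%).

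**Figure D5:**
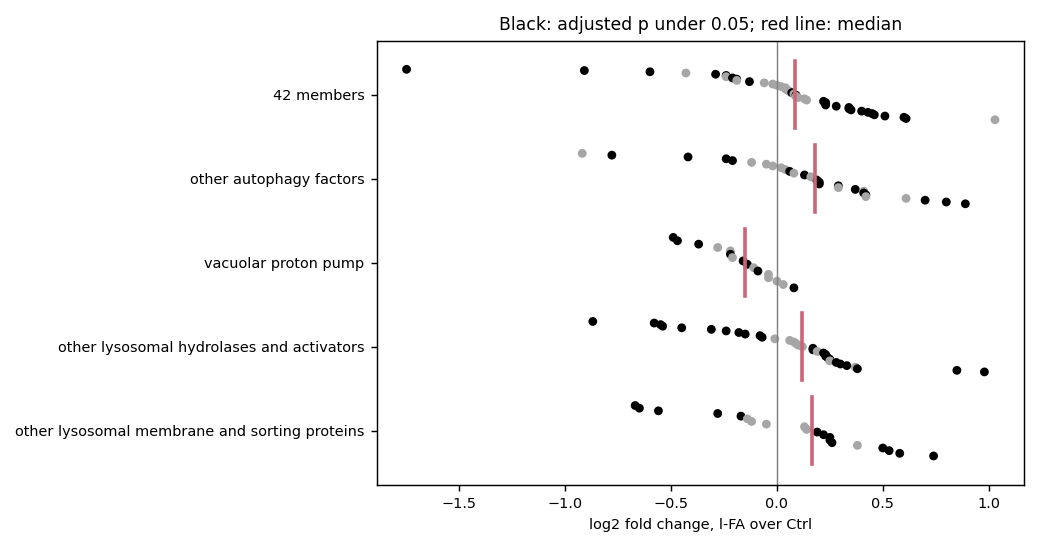
Log2 fold change, l-FA over Ctrl, of the 42 genes in 1 row and of the 98 other pathway genes in 4 rows by role; black points have an adjusted p under 0.05 and red lines mark medians. The proton pump median lies at -0.15, the medians of the other 4 rows lie above 0, and no other gene reaches the Lamp1 value.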

How the data were processed

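RNA of sorted HSCs was measured in 3 Ctrl and 3 l-FA libraries, and groups follow the sample labels. The authors deposited 1 table with whole-number counts per gene and FPKM values, which divide the counts by gene length and library total. The submitters' processing notes name HISAT2, SAMtools 1.3.1, StringTie, edgeR and GRCm39, without role or order; the study's methods give DESeq2 with limits of 2-fold and 0.05 on the adjusted p. Annotation release and counting strand are not given in the sources used here, and table coordinates are printed as listed. The test on counts was edgeR 4.0.16 under R 4.3.3 (TMM, filterByExpr, glmQLFit, glmQLFTest; Benjamini-Hochberg adjustment over 16520 of 27198 genes), and the code was tested on simulated data. FPKM served only for levels between genes. The smallest two-sided exact permutation p of 3 against 3 libraries is 0.1, so none is given.

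The 42 members, their roles and all other lists were chosen with earlier results of these data known. Per-library values are given for members past an adjusted p of 0.05 and 1.5-fold, members with a mean count of at least 100 in which 1 library differed 2-fold from each of its fellows, and the most abundant member of each role by FPKM; a promoter was to be printed for called members with TCACGTGA. Other pathway genes were to be named past 2-fold, which none reached. Of 100 symbols listed by hand, 98 were in the table. In 19 members the gene overlaps another listed gene, so shared reads cannot be assigned.

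The sources name no molecular identifiers for the amplified cDNA, so counts may not be independent molecules, and counting error is a lower limit of the error. Ctrl and l-FA libraries carry the same replicate numbers, which no source declares to be pairs. The alternatives were a replicate block, a test against a 1.2-fold change, upper-quartile or RLE scaling, DESeq2 1.42.0, a filter of 10 counts in every library or none, and each library left out in turn.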

Additional observations from a re-analysis of the deposited data

How the results depend on the processing

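Over 12 alternatives without a fold limit, 19 of the 25 called members were called every time, and of 504 member values 460 kept direction and side of the threshold, 25 lost a call, 8 gained one and 11, all of genes that did not pass, changed sign. Calls were lost by Rb1cc1, Atg101, Atg2a, Map1lc3a, Lamp2 and Gaa. In a test against a 1.2-fold change, 9 members were higher and 3 lower, 11 and 12 of the other pathway genes were higher and lower, and 4516 of all genes passed, beside 8336 without that limit. That test asks for more than a difference from 0. With each library left out in turn, members past 1.5-fold numbered 3 to 6 (main count 5; 3 without Ctrl 3, which put Atg10 and Ctss under 1.5-fold) and members past 2-fold 1 to 2 (main count 1; Map1lc3b was added without l-FA 2 or l-FA 3). The number past 1.5-fold was tracked under the alternatives only after seeing the data. Sign changed for Ctsl with upper-quartile scaling (0.0072) and for Atg7 with no low-count filter (-0.0016), and with a library left out for Atg4b (-0.05 to 0.17), Atg7 (-0.03 to 0.09), Ctsl (-0.13 to 0.11), Gabarap (-0.08 to 0.007) and Tfeb (-0.48 to 0.03); the cause was not tested.

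Over all genes tested, the deviations of same-numbered libraries were not correlated above 0.1 (0.0187, -0.0132 and -0.05), although the Bnip3l pseudogene was high in both libraries numbered 2. With a replicate block 14 members were higher and 8 lower, and these 22 were all among the 25; Rb1cc1, Lamp2 and Gaa lost their calls. Of the other genes 30 were higher and 22 lower, and 7405 of all genes passed. Rescaling moved the median of all genes by at most 0.03 on the log2 scale. Gaa lost its call under 9 and Lamp2 under 6 of the 12 alternatives. Each group has 3 libraries, and the spread between mice is unknown.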

Other observations

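Beside Map1lc3b, 3 of the other pathway genes had 1 library that differed 2-fold or more from each of its fellows, and all 3 were picked out after their values were seen. Ncoa4, the receptor that delivers ferritin to the lysosome, had 838, 2628 and 855 counts in Ctrl and 1034, 478 and 935 in l-FA, so Ctrl 2 was high and l-FA 2 low, and its log2 fold change of -0.92 (SE 0.53) did not pass with edgeR (adjusted p = 0.196). Atp6v0c, a membrane subunit of the proton pump, had 3567, 1662 and 1765 counts in Ctrl and 3022, 1289 and 2919 in l-FA, with a log2 fold change of -0.04 (adjusted p = 0.949). Mitf, a relative of Tfeb and Tfe3, had 45, 135 and 107 counts in Ctrl and 163, 124 and 118 in l-FA and did not pass (log2 fold change 0.41, adjusted p = 0.396).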
